A study of Mus musculus with 4 samples.

Results

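The sites described here were intergenic stretches of chromatin that carried an ATAC-seq peak after adipogenic differentiation in both genotypes and no peak before it in either. They were selected on the deposited peak lists. The 4 lists were merged into 98469 regions on chromosomes 1 to 19, and a region was kept when it held a peak of both day 8 libraries and none of either day 0 library, did not touch the 1000 bp before or the 100 bp after any annotated transcription start site (TSS), and had its midpoint outside every protein-coding gene body. 2370 regions met this rule. ATAC-seq marks accessible DNA through the insertion of a transposase. The cells were im-scWAT cells, a preadipocyte culture from the stromal vascular fraction of mouse subcutaneous white adipose tissue, immortalised with SV40 large T antigen. One culture was wild type (WT) and the other was Jmjd1a HY/HY (HY), homozygous for the H1122Y change that removes the histone H3K9 demethylase activity of JMJD1A. Each was sampled undifferentiated (day 0, D0) and on day 8 (D8) of beige adipocyte induction, which began with indomethacin, dexamethasone, IBMX, rosiglitazone, insulin and T3 and continued with insulin, T3 and rosiglitazone. Each of the 4 groups was 1 library, the genotypes were separate cultures, and both cultures carried the same immortalising antigen and received the same cocktail, so no difference between genotypes or days could be tested against replicate error, and genotype could not be told apart from culture.

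Accessible sites that lie far from promoters are typically enhancers, where transcription factors bind and loop to promoters of the same chromosomal neighbourhood. In adipogenesis, C/EBP-beta and C/EBP-delta act early after hormonal induction and are followed by PPARG, which binds DNA with RXR as a heterodimer and is the receptor of rosiglitazone, and by C/EBP-alpha. EBF and NFI factors take part in the choice of adipocyte fate, the glucocorticoid receptor (GR) answers to dexamethasone, and AP-1 and TEAD factors are typical of proliferating, fibroblast-like cells.

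The sequences below show the DNA of the members on which the description rests, 200 bp centred on the WT D8 summit, on the plus strand of mm9. Capitals mark matches to any of the 12 motifs searched, which are spelled out with the motif shares. The first 3 are among the members with the strongest peaks in their weaker genotype and are followed by the strongest member with an EBF and with an NFI match. The strongest member of all, 52.7 kb upstream of Ppp2r5a, held a TEAD match and no match to the other motifs. The site near Myl10 held a direct repeat with 4 bases between (TR DR4), and the one just past the 3′ end of G6pc a PPARG:RXR match.
Ppp2r5a site, chr1:193273552-193273751: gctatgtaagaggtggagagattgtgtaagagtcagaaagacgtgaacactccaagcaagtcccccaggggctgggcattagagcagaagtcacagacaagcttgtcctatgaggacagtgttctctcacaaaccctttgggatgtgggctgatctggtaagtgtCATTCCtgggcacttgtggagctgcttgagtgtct
Myl10 site, TR DR4, chr5:137138812-137139011: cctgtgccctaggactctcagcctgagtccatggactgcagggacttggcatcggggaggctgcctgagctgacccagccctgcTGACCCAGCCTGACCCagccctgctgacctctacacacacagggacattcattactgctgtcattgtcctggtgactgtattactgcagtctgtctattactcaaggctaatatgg
G6pc site, PPARG:RXR, chr11:101240360-101240559: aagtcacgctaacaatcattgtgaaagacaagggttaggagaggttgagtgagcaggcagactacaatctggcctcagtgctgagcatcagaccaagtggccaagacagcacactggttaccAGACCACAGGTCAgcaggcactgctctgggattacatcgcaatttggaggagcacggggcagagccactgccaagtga
Hemk1 site, EBF and STAT, chr9:107227417-107227616: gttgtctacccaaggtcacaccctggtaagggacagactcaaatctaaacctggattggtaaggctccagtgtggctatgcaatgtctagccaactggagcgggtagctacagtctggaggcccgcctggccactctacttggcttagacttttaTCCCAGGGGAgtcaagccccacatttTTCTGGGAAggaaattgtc
Ankrd55 site, NFI, chr13:112848592-112848791: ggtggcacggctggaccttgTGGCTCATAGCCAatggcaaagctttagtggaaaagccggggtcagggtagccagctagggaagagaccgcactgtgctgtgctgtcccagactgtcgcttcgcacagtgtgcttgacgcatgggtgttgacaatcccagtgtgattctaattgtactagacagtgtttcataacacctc

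A second set of sequences shows members within 500 bp of an amplicon that the study itself assayed by ChIP-qPCR, upstream of Ppargc1a (PGC-1α, a coactivator of mitochondrial biogenesis), Ucp1 (the uncoupling protein of thermogenic fat) and Ppara (a nuclear receptor of fatty acid oxidation). The windows are centred on summits, and not all of them reach the amplicon. The member 300.6 kb upstream of Ppargc1a lay 24 bp from its amplicon. Of these 6 sites, 3 held a motif match. The site 300.6 kb upstream of Ppargc1a held a palindromic CREB match and an AP-1 match, a site 258.7 kb upstream of it held 2 C/EBP matches, and the Ppara site nearer to the gene held a STAT match. The Ucp1 site held none of the 12 motifs in this window.
Ppargc1a distal site, CREB and AP-1, chr5:52259551-52259750: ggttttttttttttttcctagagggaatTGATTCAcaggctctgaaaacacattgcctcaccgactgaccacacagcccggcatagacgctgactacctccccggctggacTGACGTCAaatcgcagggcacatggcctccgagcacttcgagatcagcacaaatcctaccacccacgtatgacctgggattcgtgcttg
Ppargc1a nearer site, chr5:52216878-52217077: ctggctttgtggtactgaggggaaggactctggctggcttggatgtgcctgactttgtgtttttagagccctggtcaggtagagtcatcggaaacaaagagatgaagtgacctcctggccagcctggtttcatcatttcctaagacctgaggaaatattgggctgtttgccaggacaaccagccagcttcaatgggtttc
Ppargc1a nearer site, C/EBP, chr5:52217667-52217866: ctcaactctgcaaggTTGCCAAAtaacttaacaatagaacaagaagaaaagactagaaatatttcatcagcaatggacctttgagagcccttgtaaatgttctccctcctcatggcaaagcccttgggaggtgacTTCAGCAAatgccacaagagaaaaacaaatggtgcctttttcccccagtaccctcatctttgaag
Ucp1 site, chr8:85809428-85809627: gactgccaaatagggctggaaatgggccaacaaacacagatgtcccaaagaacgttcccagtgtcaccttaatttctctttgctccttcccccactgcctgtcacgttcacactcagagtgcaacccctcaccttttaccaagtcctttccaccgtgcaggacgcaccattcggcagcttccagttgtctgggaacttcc
Ppara site, chr15:85554728-85554927: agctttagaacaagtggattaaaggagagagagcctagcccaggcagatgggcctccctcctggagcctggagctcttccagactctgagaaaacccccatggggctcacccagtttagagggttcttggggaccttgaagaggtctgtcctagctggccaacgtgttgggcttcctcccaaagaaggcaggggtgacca
Ppara site nearer the gene, STAT, chr15:85555225-85555424: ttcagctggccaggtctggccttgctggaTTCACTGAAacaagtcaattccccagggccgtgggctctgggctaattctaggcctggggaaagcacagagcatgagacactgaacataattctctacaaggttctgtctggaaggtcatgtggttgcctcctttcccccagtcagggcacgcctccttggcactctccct

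The members were narrow and mostly weak peaks. Their merged width had a median of 275 bp and ranged from 90 to 1039 bp. The pileup, the number of reads stacked at the summit as the peak caller counted them, had a median of 12 in WT D8 (lowest 5, quartiles 9 and 18, highest 68) and of 12 in HY D8 (lowest 4, quartiles 9 and 18, highest 71). Against the local background of the caller this was a median enrichment of 6.31-fold in WT and 6.62-fold in HY. In 959 members (40.5%) the pileup was under 10 in at least 1 genotype, and in 107 it reached 30 in both. Intergenic sites open in all 4 libraries (6447) were wider, with a median of 556 bp, but little taller at D8, with a median pileup of 14 in each genotype. Their merged width joins peaks of all 4 libraries and that of the members D8 peaks alone, so the widths are not on equal terms. Opened sites inside gene bodies (3141) resembled the members, with a median width of 268 bp and median pileups of 12 and 13.

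The absence of a D0 peak was a matter of threshold. The lowest pileup at which a peak could be listed over the lowest background was 5 in both D0 libraries, and a D0 pileup below the caller's threshold was not listed. The nearest D0 peak lay a median of 5042 bp away, but 204 members (8.61%) had a D0 peak within 500 bp and 23 within 100 bp, the smallest gap being 4 bp. Just outside the rule were 634 intergenic regions with both D8 peaks and a D0 peak in 1 genotype. Their median D8 pileups, 12 in WT and 12 in HY, equalled those of the members, and their D0 pileup had a median of 9 and a minimum of 5. Of all 9451 intergenic regions with a peak in both D8 libraries, the members were 25.1%. A further 838 intergenic sites had a D8 peak in WT alone, with a median pileup of 8, and 2066 in HY alone, with a median of 7. At the promoter edge, 11 members lay within 100 bp of a TSS window.

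The libraries had 71523 (WT D0), 41228 (WT D8), 77994 (HY D0) and 48964 (HY D8) peaks, and the lists give no read totals. The lowest background was 0.531 in WT D8 and 0.494 in HY D8, which was taken as a depth of HY D8 of 0.931 relative to WT D8. It was higher at D0, at 0.659 in WT and 0.708 in HY. The counts of opened and closed sites below were not adjusted for this difference between days. Markers were checked at promoters. Those of all 8 adipocyte markers carried a peak in both D8 libraries against 3 of 8 in each D0 library, those of the 6 preadipocyte markers in 6 and 5 at D0 and 2 and 2 at D8. In the longer lists used below, which include these markers, most promoters did not change. A promoter was open in all 4 libraries for 15 of 25 preadipocyte genes and 21 of 30 adipocyte genes. None of 5 immune or 4 epithelial markers had a promoter peak in any library, endothelial markers had 3 and 2 of 4 at D0 and 0 and 1 at D8, and 1 of 4 muscle markers had a peak, in WT D8.

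Each pileup of a member was then compared between the genotypes. Both D8 peaks were required by the rule, which limits how far the genotypes can differ, so these ratios are a description. After scaling by background, the HY over WT ratio had a median of 0.10 on the log2 scale (quartiles -0.14 and 0.43), and 1456 members (61.4%) were higher in HY, beside 67.6% of all regions with a peak in both D8 libraries and 65.7% of intergenic sites open in all 4. The sign of that median and this majority rested on the scaling. Without scaling the median was 0 and 1097 members were higher in HY, and scaled to promoters open in all 4 libraries the median was -0.05 and 1085 were. A ratio beyond 2-fold in either direction was found in 2.83% of the members, 50 with more in HY and 17 with more in WT, beside 2.19% of all 31388 regions with a peak in both D8 libraries. The excess in HY also rested on the scaling: without it 21 members were beyond 2-fold in HY and 21 in WT (1.77%), and scaled at promoters 21 and 36 (2.41%). In members with a summed pileup of 20 to 39 the share was 3.67% (3.64% in all regions), and at 40 or more it was 0.676% (0.527%). The share in the members lay near that of all regions in each of these classes. Across members the 2 libraries' pileups had a Pearson correlation of 0.807 on the log2 scale and a Spearman correlation of 0.773, beside 0.871 and 0.845 for intergenic sites open in all 4 and 0.813 and 0.790 for opened intragenic sites. These points share their 2 libraries. The summits of the 2 genotypes lay a median of 35 bp apart, within 25 bp in 41.9% of members and over 100 bp apart in 17.1%, beside 33 bp, 44.4% and 18.4% of all regions with a peak in both D8 libraries.

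**Figure D1:**
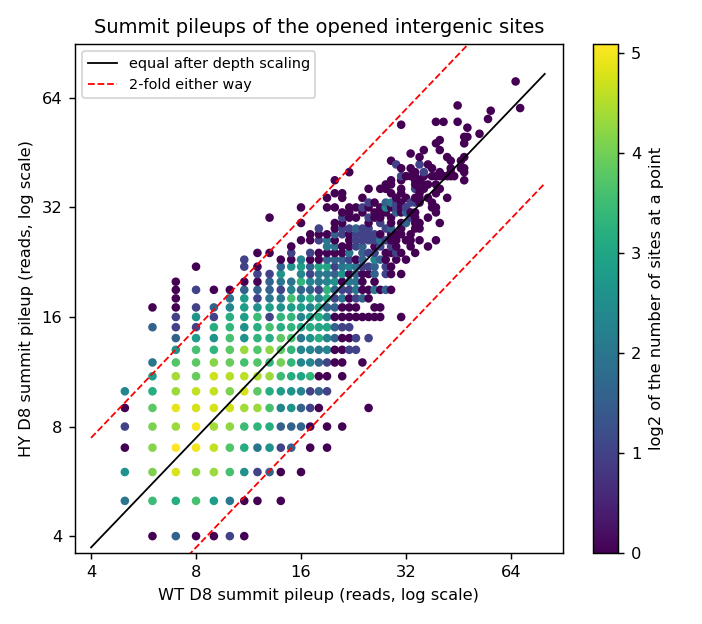
Summit pileup of each opened intergenic site in HY D8 (vertical axis, reads, log scale) against WT D8 (horizontal axis, reads, log scale), coloured by the log2 of the number of sites at a point. The solid line is equality after scaling by background and the dashed lines are 2-fold differences, beyond which 2.83% of sites lay, and 0.676% of those with a summed pileup of 40 or more.

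Among members with a pileup of at least 20 in a genotype, the highest ratios were 3.07 at chr8:89491896-89492284 (pileups 7 in WT and 20 in HY), 79.5 kb from the pseudogene-named Rps13-ps1, and 2.95 at chr1:107774482-107774738 (8 and 22), 97.3 kb downstream of the TSS of Tnfrsf11a, the receptor RANK. The third was 2.48 at chr18:12133593-12133893 (13 and 30), 29.6 kb past the end of Cables1. The lowest in the same set were 0.39 at chr12:88208907-88209208 (25 in WT and 9 in HY), 0.41 at chr13:102820421-102820860 (21 and 8), 282.5 kb upstream of Pik3r1, a regulatory subunit of PI3 kinase, and 0.54 at chr9:95471779-95472234 (24 and 12), 11.8 kb from the TSS of Paqr9. Members with smaller pileups included some with ratios as extreme. These 6 were named for their ratio, and the weaker pileup of each was between 7 and 13.

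The 10 strongest members were ranked by the weaker of their -log10 q values, so a site low in either genotype could not be among them. The site at chr1:193273247-193274039, upstream of Ppp2r5a (a regulatory subunit of the phosphatase PP2A), reached a pileup of 66 in WT and 71 in HY, with -log10 q values of 45.7 and 51.8. The site at chr5:137138708-137139119 near Myl10 had 47 and 44. The site at chr11:101240113-101240976 had 41 in WT and 55 in HY and lay 1.33 kb past the end of G6pc, the glucose-6-phosphatase of gluconeogenic tissue. Depth-scaled ratios of the 10 ran from 0.95 (near Nfil3, a bZIP repressor, at 44 and 39) to 1.46 (7.07 kb upstream of 3930402G23Rik, at 45 and 61). That last site is 51.5 kb from Irs2, the insulin receptor substrate. Another 4 lay near Lekr1 (48 and 53), 8.76 kb upstream of Scd1 (52 and 51), 47.6 kb upstream of Cd28 (39 and 39) and near Parm1 (40 and 40). None of the 10 had a D0 peak within 1 kb, the nearest being 1177 bp from the Myl10 site.

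Sequence around the summit was independent of the rule, so the members could be compared with other sites by their motifs. The study had already reported C/EBP, NFI and EBF motifs as enriched in differentiation-specific peaks of these same libraries. For these motifs the shares below are therefore not an independent finding. The comparison sets were the 11577 intergenic sites that closed in both genotypes (peaks in both D0 libraries and none at D8), the 6447 intergenic sites open in all 4 libraries (6443 with a window free of unknown bases), the 3141 opened intragenic sites, windows 1 kb to each side of the members, and 139574 intergenic windows without a peak on a 10 kb grid. A site counted once when a motif lay on either strand in the 200 bp around its WT summit, that of D0 for closed sites and of D8 for the others. The letters were TTGC and AA with 2 bases between (C/EBP), TCCC and GGGA with 2 between (EBF), TGGC and GCCA with 5 between (NFI), AGGTCA repeated with 1 base between (PPARG:RXR) or 4 (TR DR4) and up to 2 mismatches, GNACA and TGTNC with 3 between (GR), TGAC joined to GTCA (CREB), TCA joined to AGGTCA (ERR), TTC and GAA with 3 between (STAT), TGA and TCA with 1 between (AP-1), GGAATG (TEAD), and the CTCF core by name. The AGGTCA of the ERR, PPARG:RXR and TR DR4 motifs can overlap, as can CREB and AP-1. Ratios of shares are given with a 95% log interval that covers counting error over sites, which are not replicates of a condition, and 60 such ratios were computed without adjustment.

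The C/EBP letters were present in 669 of 2370 members (28.2%, 95% interval 26.5 to 30.1%). The share was 9.62% in closed intergenic sites, a ratio of 2.93 (2.69 to 3.19), 14.5% in intergenic sites open in all 4 libraries, a ratio of 1.94 (1.78 to 2.12), 8.06% in the members' flanks and 9.69% on the grid. PPARG:RXR was found in 168 members (7.09%), against 2.31% of closed sites (ratio 3.06, 2.54 to 3.69), 3.45% of sites open in all 4 (2.06, 1.69 to 2.50), 3.44% of flanks and 2.23% of grid windows. Opened intragenic sites held C/EBP in 25.9% and PPARG:RXR in 7.96%, and both intervals of the ratio included 1 (0.999 to 1.19 and 0.738 to 1.07). In that comparison CTCF was at 1.22% against 1.94% (0.630, 0.406 to 0.977) and AP-1 at 8.31% against 6.88% (1.21), with a lower bound that rounds to 1. With the full palindrome of TTGC joined to GCAA in place of the C/EBP letters above, only 4 members matched and the ratio over sites open in all 4 fell below 1 (0.836, 0.273 to 2.56).

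How often a motif was found depended on how strict its letters were. EBF lay in 65 members (2.74%) against 1.13% of closed sites (ratio 2.42, 1.81 to 3.25) and 1.82% of sites open in all 4 (1.51, 1.12 to 2.04), and 0.422% of flanks. The second interval included 1 with 50 bp on each side of the summit (0.762 to 2.20). NFI lay in 40 members (1.69%) against 1.05% (1.61, 1.13 to 2.30) and 1.63% (1.04, 0.722 to 1.49). With looser letters, TTGGCA for NFI and CCC and GGG with 2 between for EBF, NFI lay in 652 members (27.5%), a ratio over sites open in all 4 of 1.5 (1.38 to 1.64), and EBF in 329 (13.9%). GR lay in 22 members (0.928%) against 0.328% (2.83, 1.68 to 4.77) and 0.466% (1.99, 1.15 to 3.45), the latter with an interval of 0.799 to 3.33 at 50 bp. TR DR4, the spacing of the thyroid hormone receptor, lay in 101 members (4.26%) against 2.36% (1.81, 1.44 to 2.26) and 2.84% (1.5, 1.18 to 1.90). CREB lay in 4 members, a ratio of 0.454 (0.163 to 1.26) over closed sites and 0.265 (0.0951 to 0.740) over sites open in all 4. ERR lay in 9 members, with both intervals spanning 1, and STAT in 7.30% against 7.70% and 7.33%, with both ratio intervals spanning 1. Of the 2370 members, 1489 (62.8%) held none of C/EBP, EBF, NFI, PPARG:RXR and GR, 803 held 1 of them, 73 held 2 and 5 held 3, all with the stricter letters for EBF and NFI.

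AP-1, TEAD and CTCF showed the opposite order. AP-1 lay in 197 members (8.31%) against 33.5% of closed intergenic sites, a ratio of 0.248 (0.216 to 0.284), and 23.5% of sites open in all 4 (0.354, 0.308 to 0.408). The members still exceeded their own flanks at 5.66% (1.47, 1.23 to 1.75). TEAD lay in 11.6% against 22.4% (0.519, 0.462 to 0.583) and 16.9% (0.687, 0.607 to 0.778), and in 10.9% of flanks (1.07, 0.929 to 1.22). CTCF, the factor of chromatin loop anchors, lay in 29 members (1.22%) against 7.70% (0.159, 0.110 to 0.229) and 9.84% (0.124, 0.0860 to 0.180). Base composition differed between the sets: the median GC content of the window was 49.5% in members, 48% in closed sites, 52% in sites open in all 4, 45.5% in flanks and 41% on the grid. Weighted to the members' GC content, the C/EBP ratio over closed sites was 3.19 (2.92 to 3.48) and over sites open in all 4 it was 1.63 (1.5 to 1.78), and the AP-1 ratios kept their direction.

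**Figure D2:**
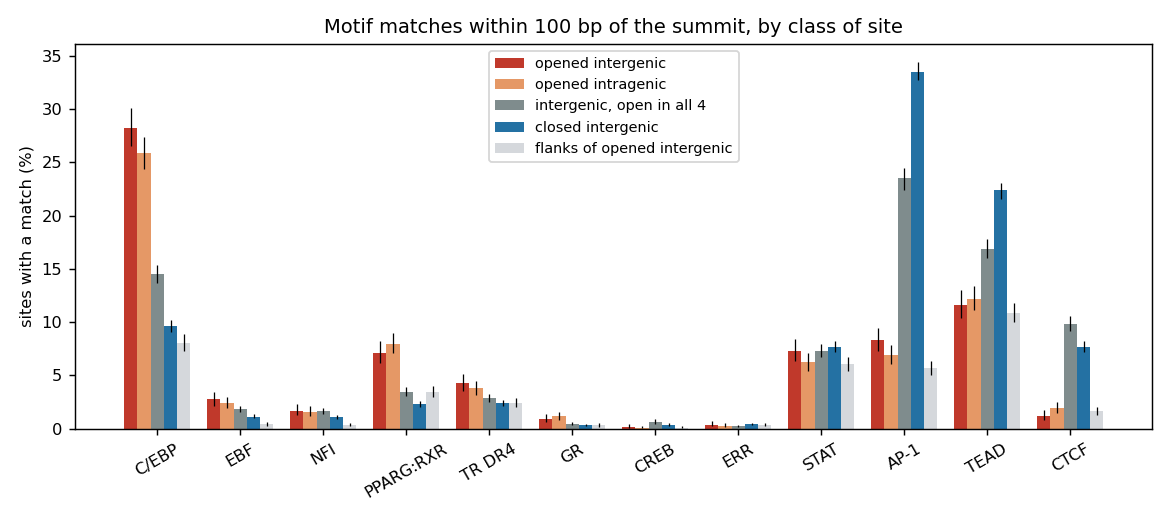
Share of sites (%, vertical axis) with a match to each of 12 motifs within 100 bp of the summit, for the opened intergenic sites and 4 comparison sets. Error bars are 95% Wilson intervals for counting error. C/EBP (28.2%) and PPARG:RXR (7.09%) stand above the closed and the constantly open sites, and AP-1 (8.31%), TEAD and CTCF below them.

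Matches of C/EBP, PPARG:RXR, EBF and NFI were most frequent within 100 bp of the summit. In 50 bp bins, 7.93, 7.26, 7.34 and 9.45% of members held a C/EBP match in the 4 bins within 100 bp of the summit, against 2.07% and 3.38% in the outermost bins at 550 to 600 bp. PPARG:RXR was highest in the 2 bins that touch the summit, at 2.19 and 2.15%, against 0.928 and 0.886% at the outer ends. EBF and NFI were highest in the bin 50 to 100 bp downstream, at 1.18% and 0.633%, and had fewer matches in a bin at the summit itself (0.295% and 0.127%), with 7 and 3 matches. AP-1 was at 1.56 and 1.81% at the ends and 2.45% just past the summit. The share of C/EBP was not higher in taller peaks: in 4 classes of rising pileup in the weaker genotype it was 29.8, 29.1, 29.1 and 25%, with intervals that overlap, and by distance from a protein-coding TSS it was 28.2% under 10 kb and 30.9% beyond 100 kb. AP-1 was found in 10.1% of the lowest class and 6.07% of the highest.

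**Figure D3:**
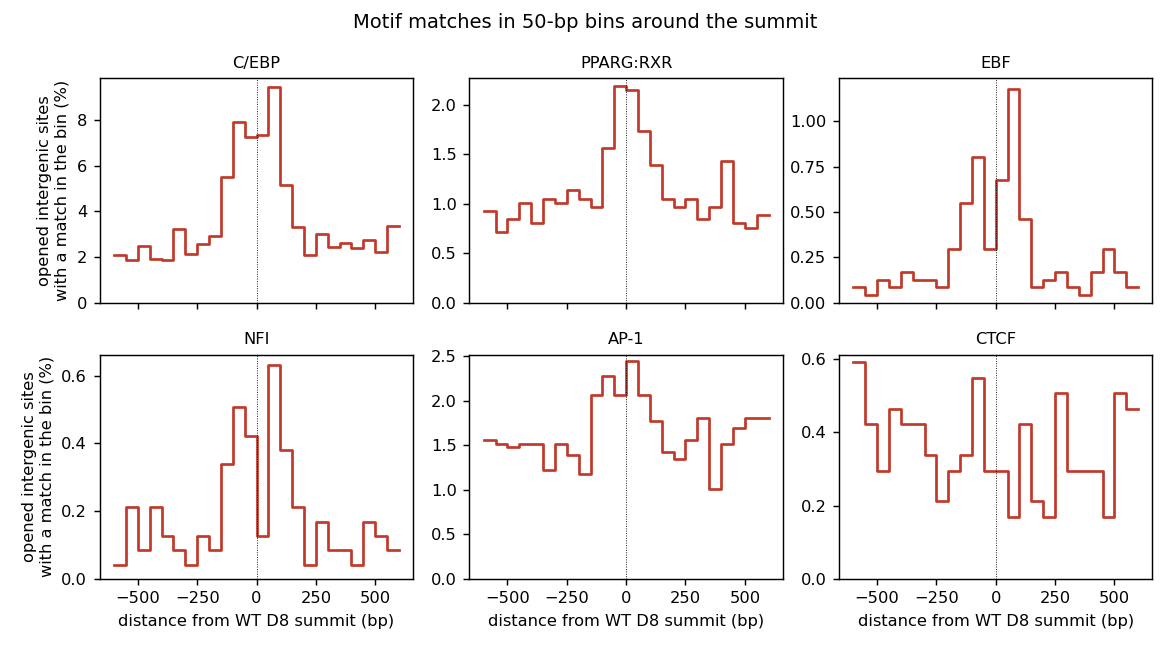
Share of opened intergenic sites (%, vertical axis) with a motif match in each 50 bp bin, by distance from the WT D8 summit (bp, horizontal axis), for 6 motifs with separate vertical scales. C/EBP climbs from 2.07% at the left end to 9.45% at 50 to 100 bp past the summit, whereas CTCF is at 0.591% at the left end and 0.295% at the summit.

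By position, the members were distal. The distance from the midpoint to the nearest protein-coding TSS had a median of 31132 bp, against 41820 bp for closed sites and 27623 bp for sites open in all 4. Under 10 kb lay 20.8% of the members (19.2 to 22.5%), and 17.0% of closed and 22.9% of constantly open sites. Beyond 100 kb and up to 500 kb lay 19.7% (18.2 to 21.4%), against 25% and 15.2%. In these distances the members stood between the other classes. Of the members, 64.3% were upstream of their nearest TSS, beside 60.6% of closed and 61.3% of constantly open sites. The farthest, at chr2:46501912-46502273, lay 1529 kb from Zeb2, had pileups of 13 and 13 and had its nearest D0 peak 63788 bp away. The next were 1421 kb from Gm1840 (9 and 7) and, in the same gene-poor stretch of chromosome 2, 1108 kb from Zeb2 (8 and 7). Per chromosome the members numbered from 60 on chromosome 14 (0.479 per Mb) to 176 on chromosome 13 (1.46 per Mb), and as a share of members plus constantly open intergenic sites they ran from 22.2% on chromosome 14 to 32.4% on chromosome 8. Because only protein-coding genes bounded the rule, 149 members lay in 109 non-coding genes, 83 of them in 57 lincRNAs, and Pvt1, the lincRNA downstream of Myc, held 7.

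The members were also chained by position, without the same count for other classes, so the share in clusters is not read as particular to them. Chained at up to 20 kb, 895 of them (37.8%) fell into 376 clusters of 2 or more, 86 clusters had 3 or more and 13 had 5 or more. A cluster of 7 spanned 56.0 kb between Spag9 and Tob1 (chr11:93998800-94054751), where Tob1 is an antiproliferative factor, with pileups of 26, 26, 25, 31, 32, 28 and 8 in WT and 27, 19, 26, 39, 26, 33 and 8 in HY. The members of each pair of values were within 2-fold of each other, and 1 of the 7 held an EBF match. A second cluster of 7 covered 59.7 kb upstream of Ppara (chr15:85495872-85555540), from -69.46 to -10.09 kb relative to its TSS, with 16, 25, 23, 34, 33, 12 and 20 in WT and 17, 28, 18, 24, 45, 13 and 21 in HY. Between these 7 lay 4 intergenic sites open in all 4 libraries and 1 that closed, so the opened sites were interleaved with constant and closed ones. No member of this cluster held a C/EBP or PPARG:RXR match.

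The next clusters each had 6 members. That at chr1:60698134-60726258, between Raph1 and Cd28, had pileups of 14, 13, 12, 20, 12 and 39 in WT and 11, 13, 16, 26, 15 and 39 in HY, and 3 of the 6 held a C/EBP match. That at chr8:71359321-71390570, ending 13.8 kb before Lpl, which encodes the lipase that takes fatty acids from circulating triglyceride, had 10, 11, 23, 15, 18 and 29 in WT and 11, 17, 28, 15, 22 and 22 in HY. A C/EBP match lay in 3 neighbouring members of it. That at chr8:10879921-10911662, near 3930402G23Rik, had 11, 12, 9, 12, 11 and 21 in WT and 11, 11, 13, 16, 13 and 28 in HY. Neither the cluster before Cd28 nor that before Lpl contained a constantly open or a closed region. Adjacent members, such as the Ppara sites that end at 85554971 and start at 85555109, were counted apart, and whether they form 1 accessible stretch was not tested.

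The members were next set against the promoters of the genes around them. Promoter states come from the same 4 peak lists as the rule, so the shares below are a description of how opened sites and promoters are placed. Of 21418 protein-coding genes on chromosomes 1 to 19, 2459 (11.5%) had a member within 50 kb of a TSS. Among the 117 genes whose own promoter had opened in both genotypes, 33 did (28.2%, 20.8 to 37.0%), and among the 10773 with a promoter open in all 4 libraries 1583 did (14.7%, 14 to 15.4%), a ratio of 1.92 (1.43 to 2.57). Genes whose promoter closed had a member in 9.47% (ratio 0.645, 0.513 to 0.809) and genes without any promoter peak in 7.18% (0.489, 0.447 to 0.534). Closed intergenic sites showed no such order for opened promoters: a closed site lay within 50 kb of 38.1% of all protein-coding genes, of 39.3% of the genes with an opened promoter and of 42.9% of those open throughout (ratio 0.915, 0.730 to 1.15). Neighbouring genes share sites, so the genes are not independent.

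Seen from the members, the promoter of the nearest protein-coding gene was open in all 4 libraries for 1609 members (67.9%), beside 57.5% of closed, 64% of constantly open and 78.8% of opened intragenic sites. It lacked any peak for 514 (21.7%) and had itself opened for 40 (1.69%, 1.24 to 2.29%). The last share was 0.466% for closed sites, a ratio of 3.62 (2.41 to 5.43), and 0.605% for constantly open sites, a ratio of 2.79 (1.80 to 4.33). Several sites can share a nearest gene, so these sites are not independent. Counted once per nearest gene, the 2 ratios were 2.85 (1.68 to 4.83) and 2.07 (1.22 to 3.51). The nearest promoter had closed for 2.07% of members against 5.10% of closed sites (0.406, 0.304 to 0.541, or 0.523, 0.376 to 0.725, counted once per gene). For opened intragenic sites the share with an opened nearest promoter was 1.43% (1.18, 0.772 to 1.80).

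Lists of genes of this tissue and of others were then counted, with no test. Of 30 adipocyte genes, 21 (70.0%) had a member within 50 kb and 11 (36.7%) a closed site, beside 11.5% and 38.1% of all protein-coding genes. The median number of members near an adipocyte gene was 1 and that of all genes 0. Of 20 thermogenic genes 9 (45.0%), of 29 transcription factor genes of adipogenesis 13 (44.8%), of 23 hormone response genes 8 (34.8%) and of 25 liver genes 5 (20%) had a member. A closed site lay near 40% of the thermogenic, 27.6% of the transcription factor, 56.5% of the hormone response and 40% of the liver genes. Among 25 preadipocyte genes closed sites were the more frequent, as among all protein-coding, hormone response and liver genes. There 1 gene was near a member (Dpp4, a surface protease of early progenitors) and 20 (80%) near a closed site. The low count of preadipocyte genes with a member held within 50 kb: within 100 kb 7 of the 25 had a member, beside 19.9% of all protein-coding genes. Of 24 neuronal genes 1 had a member, Snap25, and 4 (16.7%) a closed site. The hormone response genes with a member were Per1, Klf9, Dusp1, Angptl4, Pdk4, Pck1, Thrsp and Gadd45g. The liver genes with a member included G6pc and Hp, the haptoglobin gene that adipocytes express as well.

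**Figure D4:**
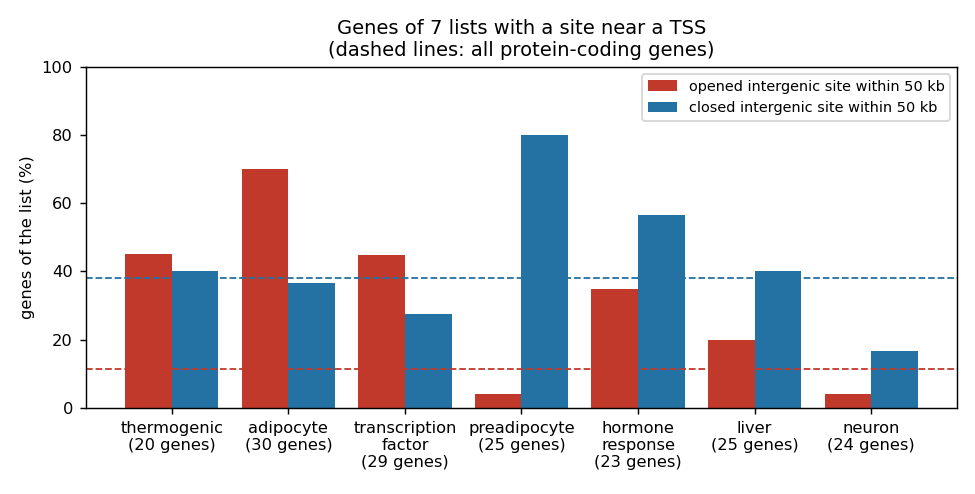
Share of the genes of 7 lists (%, vertical axis) with an opened (red) or closed (blue) intergenic site within 50 kb of a TSS, with the number of annotated genes under each list. Dashed lines give all protein-coding genes, at 11.5% for opened and 38.1% for closed sites. Opened sites were most frequent at adipocyte genes (70.0%) and closed sites at preadipocyte genes (80%).

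Among adipocyte genes, Scd1, whose product desaturates fatty acids, had the most members of any protein-coding gene, 8 within 50 kb. Upstream of it the pileup was 52 (WT) and 51 (HY) at 8.76 kb, 47 and 50 at 14.7 kb and 14 and 21 at 38.4 kb, and those downstream ran from 17 to 46 in WT and from 16 to 43 in HY. The Scd1 promoter was open in all 4 libraries. Fabp4, the fatty acid binding protein of adipocytes, had 5 members and an opened promoter with pileups of 46 and 46. Its strongest member, 5.34 kb upstream at chr3:10213731-10214101, had 43 in WT and 40 in HY, and 2 members 6.13 and 6.77 kb downstream of the TSS had 34 and 32 in WT and 30 and 34 in HY. The strongest member of Lpl was 14.1 kb upstream at 29 in WT and 22 in HY.

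Cfd (adipsin, a serine protease) had 35 in WT and 36 in HY at a member 6.31 kb upstream, which was 1.77 kb from the TSS of Elane and 146 bp from a D0 peak. Retn (resistin, a secreted peptide) had 29 and 33 at 8.75 kb upstream, 5.41 kb from the TSS of Stxbp2, with a C/EBP match. Lep (leptin), without a promoter peak in any library, had 24 and 25 at 28.2 kb upstream, with C/EBP and AP-1 matches and a D0 peak 327 bp away. G0s2, an inhibitor of adipose triglyceride lipase, had 26 and 27 at 5.30 kb upstream. Plin1, the perilipin that coats lipid droplets, had 32 and 29 at 2.05 kb upstream of a promoter that had opened. After scaling, the HY over WT ratio of these 5 members ran from 0.97 to 1.22, and that of the strongest member of each of the 21 adipocyte genes from 0.73 to 1.43.

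**Figure D5:**
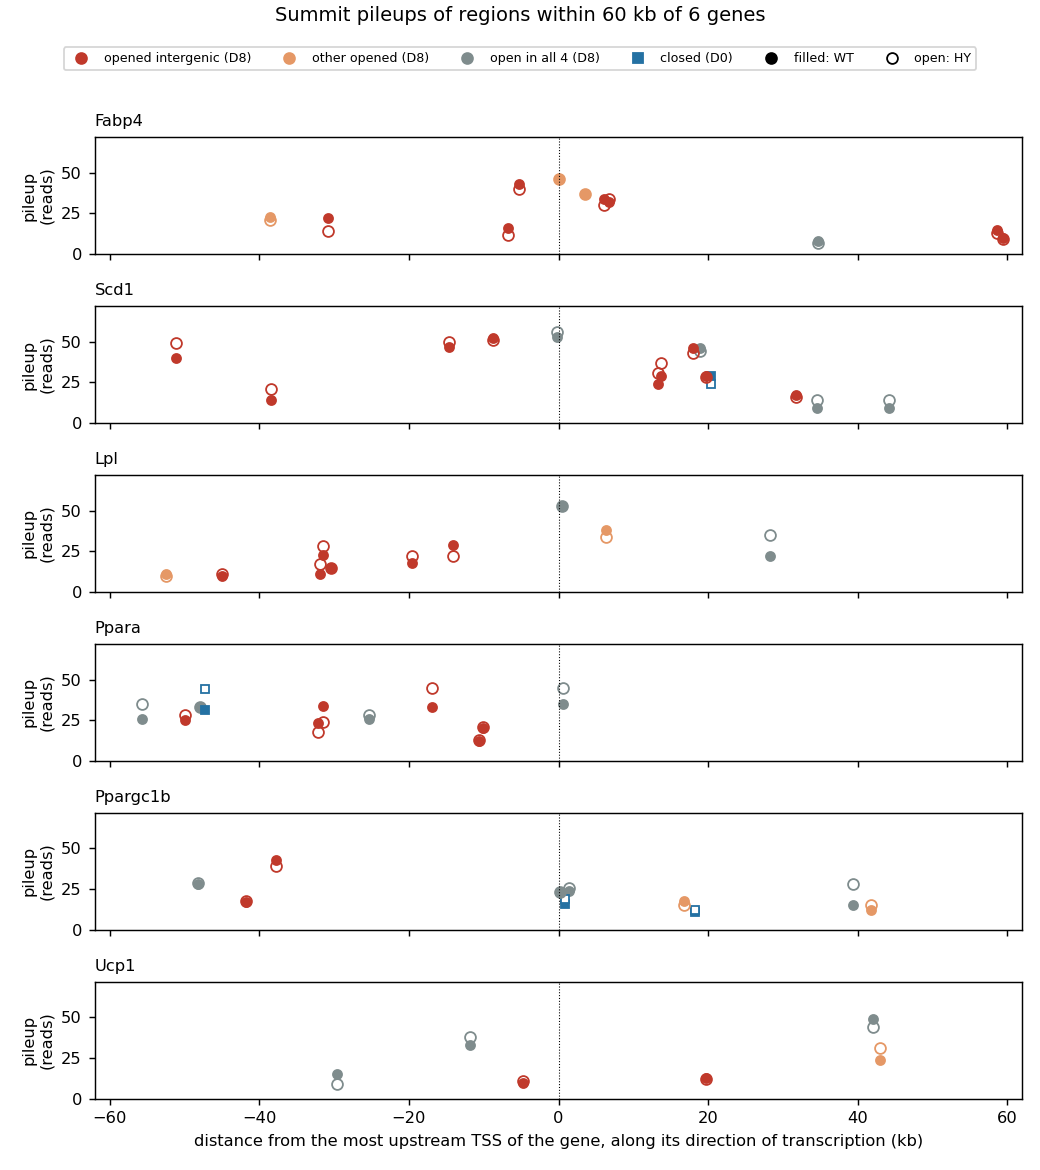
Summit pileup (reads, vertical axis) of the regions within 60 kb of the TSS of 6 genes, by distance from the most upstream TSS in the direction of transcription (kb, horizontal axis). Circles are D8 pileups and squares D0 pileups of closed regions, filled for WT and open for HY. Only regions opened, closed or open in all 4 libraries are drawn. Scd1 has 8 opened intergenic sites within 50 kb, Ucp1 has 2, with pileups of 10 to 13.

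The strongest sites near thermogenic genes lay at Ppargc1b and Ppara. The member 37.8 kb upstream of Ppargc1b (PGC-1β, a coactivator of mitochondrial gene expression), at chr18:61597511-61598157, had 43 in WT and 39 in HY, contained one of the amplicons of the study and held a C/EBP match. A second, at -41.78 kb, had 17 and 18. Ppara had 33 in WT and 45 in HY at 16.9 kb upstream, within the cluster described above. Prdm16, a determinant of brown and beige fate, had 19 and 22 at 26.0 kb upstream, 5.01 kb from the TSS of Actrt2. Kcnk3, a potassium channel, had 19 and 25 at 40.5 kb downstream of a TSS, and Letmd1 had 18 and 16. Elovl3, a fatty acid elongase, had 22 in WT and 13 in HY at 21.4 kb upstream, a ratio of 0.63, and Adrb3, the beta-3 adrenergic receptor, had 10 in WT and 18 in HY at 1.22 kb upstream, a ratio of 1.93. Ucp1, without a promoter peak in any library, had 2 members. The one 4.74 kb upstream at chr8:85809241-85809772 had 10 in WT and 11 in HY and contained the amplicon of the study, and the one 19.7 kb downstream, past the gene towards Elmod2, had 13 and 12 with C/EBP and AP-1 matches. No member lay within 50 kb of Ppargc1a, Cidea or Dio2.

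Of 11 ChIP-qPCR amplicons of the study, matched by their primers to mm9, 5 had a member within 500 bp. Far upstream of Ppargc1a, whose promoter had opened, the member at chr5:52259408-52259766 had 14 and 12, and the 2 near the other distal amplicon had 7 and 9 in WT and 13 and 10 in HY. The first of these 2 had the largest genotype ratio among the amplicon members, 2.00, on 7 reads in WT against 13 in HY. The 2 members at the amplicon near Ppara had 12 and 20 in WT and 13 and 21 in HY. Another amplicon upstream of Ppargc1b and one more upstream of Ppargc1a fell at intergenic sites open in all 4 libraries, and that upstream of Cidea at a site with a D8 peak in WT alone. Distances of the Ppargc1a sites were taken from the nearest annotated TSS and are shorter than those in the study's amplicon names.

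In the transcription factor list, Srebf1, the regulator of lipogenic genes, had 47 in WT and 48 in HY at 2.35 kb upstream. Klf9, a target of glucocorticoid and thyroid hormone, had 27 and 32 at 48.8 kb downstream, with a C/EBP match. Zfp423, a preadipocyte factor, had 29 and 32 at 7.88 kb upstream, and Cebpb, the early C/EBP factor, 29 and 33 at 7.54 kb downstream of its TSS. Of the 29 genes 25 had a promoter open in all 4 libraries and none a promoter opened in both genotypes.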

How the data were processed

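ATAC-seq was performed on 4 libraries, 1 for each genotype and day, and the peak lists were analysed as deposited. Per the labels, reads were handled with Bowtie2, SAMtools, Picard and deepTools on mm9; the threshold of the peak caller, the tool versions and any shift of the insertion sites are not given in the sources used here. Each deposited list gives the fold of the summit pileup over local background, the -log10 p and -log10 q of the summit, a score (10 times -log10 q, unused), and the summit position, all made by the authors.

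From fold and -log10 p, the whole-number pileup and the background of each peak were solved, and every peak gave a whole pileup within 0.002. Lists were merged at 1 bp overlap and annotated with the mm9 gene models of GENCODE. Pileups were scaled by the lowest background of each list. Sequence was read from mm9 with pysam 0.24.0. Analyses ran in Python 3.11.15 with numpy 2.4.6, pandas 2.3.3 and scipy 1.17.1. The solution of the pileups and the motif search were tested on simulated data. Merging was checked on the real peaks by its number of regions against bedtools. With 1 library per group there is no test between conditions. Wilson intervals of shares and log intervals of ratios cover counting error over sites only. The members and gene lists were chosen with earlier results of these data known. Named members were the 10 strongest by the weaker -log10 q, the strongest near each gene of the thermogenic, adipocyte and transcription factor lists with a member within 50 kb (the text gives 20, the first 8, 8 and 5 of the lists by that measure, Prdm16 being in 2 lists), those within 500 bp of an amplicon, the 3 highest and 3 lowest in ratio among those with a pileup of at least 20 in a genotype, and the 3 farthest from a TSS. The further members near Scd1, Fabp4, Ppargc1b and Ucp1 were added after their values were seen. Others named for their motif are the strongest with EBF and with NFI. Alternatives changed the merging, peak threshold, TSS window, gene biotypes, scaling, motif window, motif letters and distances. Repeat content was not analysed here. One of the 10 strongest members is not reported here.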

Additional observations from a re-analysis of the deposited data

Results flagged for a closer look

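Chromosome X was outside the set of chromosomes 1 to 19. The same rule found 54 intergenic sites there, whose D8 pileups had medians of 9 (WT) and 9.5 (HY), the highest pileup of a weaker genotype being 23. They were singled out as signal in data that the comparisons above do not use.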

How the results depend on the processing

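Of 141 values recomputed under an alternative, 115 were counted as alike, which for a ratio means the same direction and the same side of 1 for its interval, and for a count a change of at most 1.5 times. Requiring a -log10 q of at least 5 at D8 left 1474 members. With the 4 peak lists cut to equal length, the rule gave 3138 sites, a count that passed as alike. Of these, 2136 (68.1%) overlapped a member, and 90.1% of the members were overlapped, so the set depended on the length of the lists. The median log2 ratio of HY over WT was 0 without scaling and -0.0544 when scaled at promoters. For members over closed sites, the NFI ratio was 1.63 at 50 bp on each side (0.824 to 3.22), CREB 0.349 at 150 bp, ERR 1.26 at the HY summit, and STAT 1.01 with GC weighting and 1.05 at 50 bp. For members over sites open in all 4, C/EBP was 0.836 and NFI 1.5 (1.38 to 1.64) with the other motif form, NFI 0.955 at the HY summit, and at 50 bp EBF was 1.30 (0.762 to 2.20), GR 1.63 (0.799 to 3.33), CREB 0.286 (0.0667 to 1.23) and STAT 1.04. Within 10 kb the genes with a member numbered 2 thermogenic, 5 transcription factor, 0 preadipocyte, 3 hormone response, 1 liver and 0 neuronal, and within 100 kb 7 preadipocyte, 13 hormone response, 8 liver and 3 neuronal, beside 2.6% and 19.9% of all protein-coding genes at these distances. Chained at 50 kb, the largest cluster had 15 members. The cause of these changes was not tested. No paired analysis was possible because each group was 1 library and the result comes from no test.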
